A study of Mus musculus with 28 samples.

Results

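The 10 apolipoprotein genes Apoa1, Apoa2, Apoa4, Apoa5, Apob, Apoc1, Apoc2, Apoc3, Apoe and Apom were followed in livers, pancreases and lungs of mice that overexpress human APOBEC3B (A3B), a cytosine deaminase. The members were taken by gene name, 10 of 35858 genes in the transcript files and 10 of 24844 gene rows in the gene table. A3B mice carried TetO-A3B-tGFP in the ColA1 locus together with CAGS-rtTA, a constitutive driver that turns the transgene on in most tissues when doxycycline (dox) is in the food, starting at 4 weeks of age. The 28 samples form 2 sets processed by different pipelines. Set 2 holds 6 A3B and 2 control livers and 6 A3B and 2 control pancreases, all labelled with 10 days of dox, whose livers of control mice are labelled with the A3B transgene alone. Set 1 holds 3 A3B and 3 control livers and 3 A3B and 3 control lungs. In set 1 the A3B livers 23 and 28 are labelled with 14 days of dox, A3B liver 70 and the A3B lungs with 10 days, and the controls with 15 days. The study's mouse table gives other days for these controls, most of them without dox, so the labels and that table disagree. For the control mice of set 2 a figure legend of the study speaks of animals without dox. The study's methods say that control littermates received dox, and the labels and the table also give dox. If the legend is right, dox and A3B cannot be told apart. The table lists the mice of set 2 with the genotypes that their titles imply.

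Some genotype labels go against the sample titles, and groups follow the titles here. A3B pancreases 44 and 137 are labelled A3B alone, and control pancreases 45 and 168 and control liver 11 are labelled with both transgenes. Control lung 87 is labelled with the CAGs driver alone, also a control genotype. In set 1, where the transgene was quantified, it lay between 705 and 1705 TPM (a level scaled for transcript length and library total) in the A3B livers, between 90.6 and 281 TPM in the A3B lungs, and at or below 0.526 TPM in all 6 controls, control liver 11 included. The transgene of set 2 is not in the transcript files. Estimated counts summed to between 65161064 and 118976013 per sample in set 2, of which the 10 genes held 2156543 to 4481651 in livers, 84190 to 356325 in A3B pancreases and 7995 and 12504 in control pancreases, and the depth of set 1 is unknown because its table holds TPM only. The Y-linked genes Ddx3y and Eif2s3y were expressed in A3B mice 125, 137 and 153 and control 168 of set 2 and, of set 1, in control liver 11 alone, so both sexes are present and are unevenly spread over the groups. Several libraries stood apart. A3B liver 48 had a summed macrophage marker level of 46.1 TPM against 455 to 1514.5 TPM in the other livers of set 2, and A3B liver 49 had the highest Apoa4 and Apoc2. In liver 49 the 6 markers of intestinal enterocytes summed to 356 TPM, against 4.01 to 118 TPM in the other livers of set 2. Their part in its Apoa4 value was not tested. Hepatocyte markers were high in 3 of the 6 lungs. Labels name mice by number, so replicates are taken as separate animals, and liver and pancreas, or liver and lung, of a numbered mouse share that animal.

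Apolipoproteins are the protein part of lipoproteins, the particles that carry cholesterol and triglyceride in blood. Apob is the structural protein of very low and low density lipoproteins, Apoa1 and Apoa2 build high density lipoprotein, and Apom is carried mainly on that particle and binds sphingosine-1-phosphate. The C proteins and Apoa5 tune lipoprotein lipase (Apoc2 and Apoa5 promote lipolysis, Apoc1 and Apoc3 restrain it), Apoa4 is made by intestine and liver in response to fat, and Apoe is the ligand through which remnant particles are taken up, made by hepatocytes and by macrophages. Apob messenger RNA is also the classic substrate of Apobec1, a relative of A3B, which edits a glutamine codon to a stop codon so that a shorter protein is made.

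The editing site is shown because it divides the Apob transcripts that the data can tell apart. In the reference transcript Apob-202 (13934 bases, 29 exons, GRCm38/mm10, GENCODE M21) the edited codon is codon 2179 of 4505, in exon 26, with its C at position 8008054 of chromosome 12 on the plus strand. The 30 reference bases at chr12:8008048-8008077 follow, with the edited codon in capitals and the start of the mooring sequence, the element that positions the editing complex, 2 bases after it.
Apob-202, exon 26: gcgataCAAtttgatcagtatattaaagat
A second annotated transcript, Apob-203 (2174 bases, 5 exons, chr12:8012359-8016835), holds only the 3′ end of the gene. It starts 4305 bases downstream of the edited base and therefore lacks the site. Editing itself cannot be read from transcript counts and was not measured here.

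In livers, the question was how the genes of lipoprotein secretion stood after A3B induction. No member passed the test in either set (0 of 10 in set 2 with edgeR, where 3.66% of 17365 genes did, and 0 of 9 in set 1 with limma, where 7.93% of 11506 genes did). At an unadjusted p under 0.05 there were 3 members in set 2 and 5 in set 1, against 22.9% and 32.6% of all genes. DESeq2 on set 2 called 2 of the 9 members for which it gave an adjusted p, Apob and Apoe, against 14.1% of genes, and scaling by totals called 0 of 10, against 6.45%. The direction was nevertheless alike in both sets. The log2 fold change was negative for 8 of 10 members in set 2, against 40.0% of all genes, and for 8 of 9 in set 1, against 32.5%. Over the 10884 genes tested in both, 77.3% had the same sign in both sets, and 9 of 9 members did. Negative values in both sets were found for 8 of 9 members and for 27.8% of all genes. The median log2 fold change of the members was -0.73 in set 2, where the median of all genes was 0.21, and -0.87 in set 1, where it was 0.39. The 12 hepatocyte markers summed to 160802 and 98385 TPM in the controls of set 2 and to between 46348 and 95225 TPM in the A3B livers, and to 36369 to 47790 TPM and 27766 to 38080 TPM in set 1. In set 2 this separation rested on albumin, Alb, at 107806 and 54669 TPM in controls and 19353 to 44124 TPM in A3B livers. Without Alb the sums overlapped, at 52996 and 43715 TPM in controls and 25805 to 65585 TPM in A3B livers. Of the 12 markers 1, Trf, fell in set 2 and none passed in set 1. The median log2 fold change of these markers was -0.55 in set 2 and -0.32 in set 1. It lay below that of all genes in both sets, as it did for the members. Their part in the member values was not tested. Fewer hepatocytes and less RNA per hepatocyte cannot be told apart in these bulk samples.

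**Figure D1:**
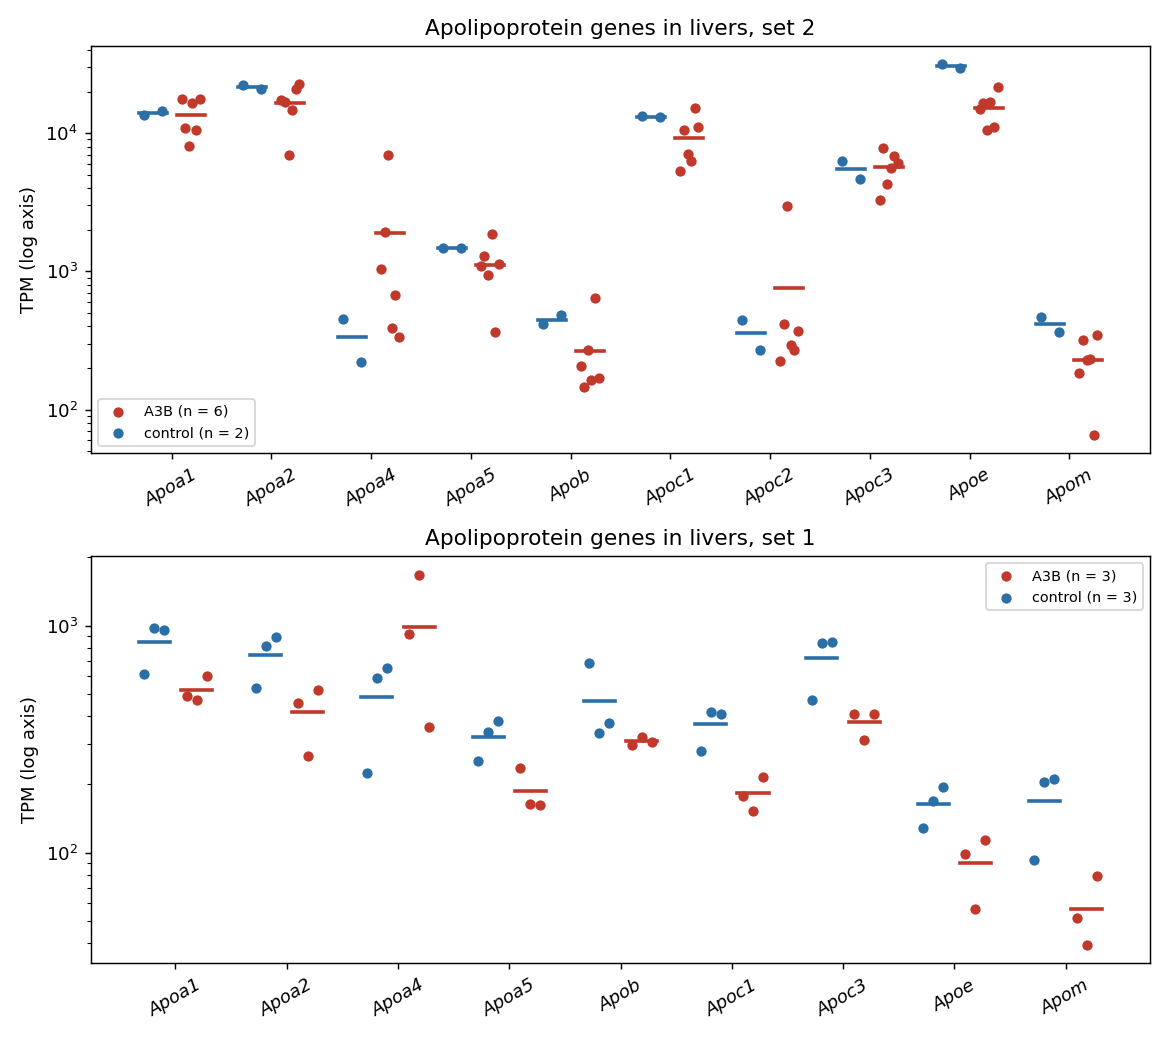
TPM (log axis) of each apolipoprotein gene in every liver of set 2 (upper panel) and set 1 (lower panel, without Apoc2, which is listed at 0). Points are mice, horizontal bars are group means, blue is control and red is A3B. In set 1 the 3 A3B points lie below the 3 control points for every gene shown except Apoa4.

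The ligand Apoe and the high density lipoprotein protein Apom lay lower in every A3B liver than in every control liver, in both sets. Apoe, the most abundant member in control livers of set 2, was at 31396 and 29614 TPM in controls 45 and 168 and ranged from 10463 to 21673 TPM (median 15733) in the 6 A3B livers. The groups did not overlap, and the log2 fold change was -1.26 (SE 0.45, edgeR adjusted p = 0.142). In set 1 Apoe was at 129, 168 and 195 TPM in controls 11, 91 and 92 and at 99.3, 56.8 and 114 TPM in A3B livers 23, 28 and 70. Again the groups did not overlap, with a log2 fold change of -0.90 (SE 0.36, limma adjusted p = 0.138). Apom was at 465 and 364 TPM in the controls of set 2 and ranged from 66.1 to 349 TPM (median 231) in the A3B livers. Its lowest value came from A3B liver 48, and the log2 fold change was -1.21 (SE 0.46, edgeR adjusted p = 0.156). In set 1 it was at 93.4, 204 and 211 TPM in controls and at 51.7, 39.3 and 79.4 TPM in A3B livers (log2 fold change -1.53, SE 0.44, limma adjusted p = 0.0669). Without control liver 11, the library of set 1 with Y-linked expression, that adjusted p became 0.0345, and calls over all genes rose from 912 to 1561. With each library left out in turn, the limma adjusted p of Apom ran from 0.0345 to 0.26.

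In set 2, every A3B liver below every control was true of 2 of 10 members and of 5.42% of genes. In set 1 it was true of 8 of 9 members and of 10.3% of genes. The exception in set 1 was Apoa4. The summed share of all TPM held by the 10 genes was 9.10% and 8.72% in the control livers of set 2 and ranged from 4.86% to 8.24% in the A3B livers, with a difference of -2.385 percentage points (two-sided exact permutation p = 0.0357, the smallest that 6 against 2 allows). Without Apoe the difference was -0.827 percentage points (exact permutation p = 0.25). In set 1 the share was 0.328%, 0.468% and 0.490% in controls and 0.315%, 0.346% and 0.277% in A3B livers. These overlapped (exact permutation p = 0.2, where 0.1 is the smallest that 3 against 3 allows). Levels are not compared between the sets, since duplicate reads had been removed in set 1 according to its column names, and abundant genes stand much lower there.

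**Figure D2:**
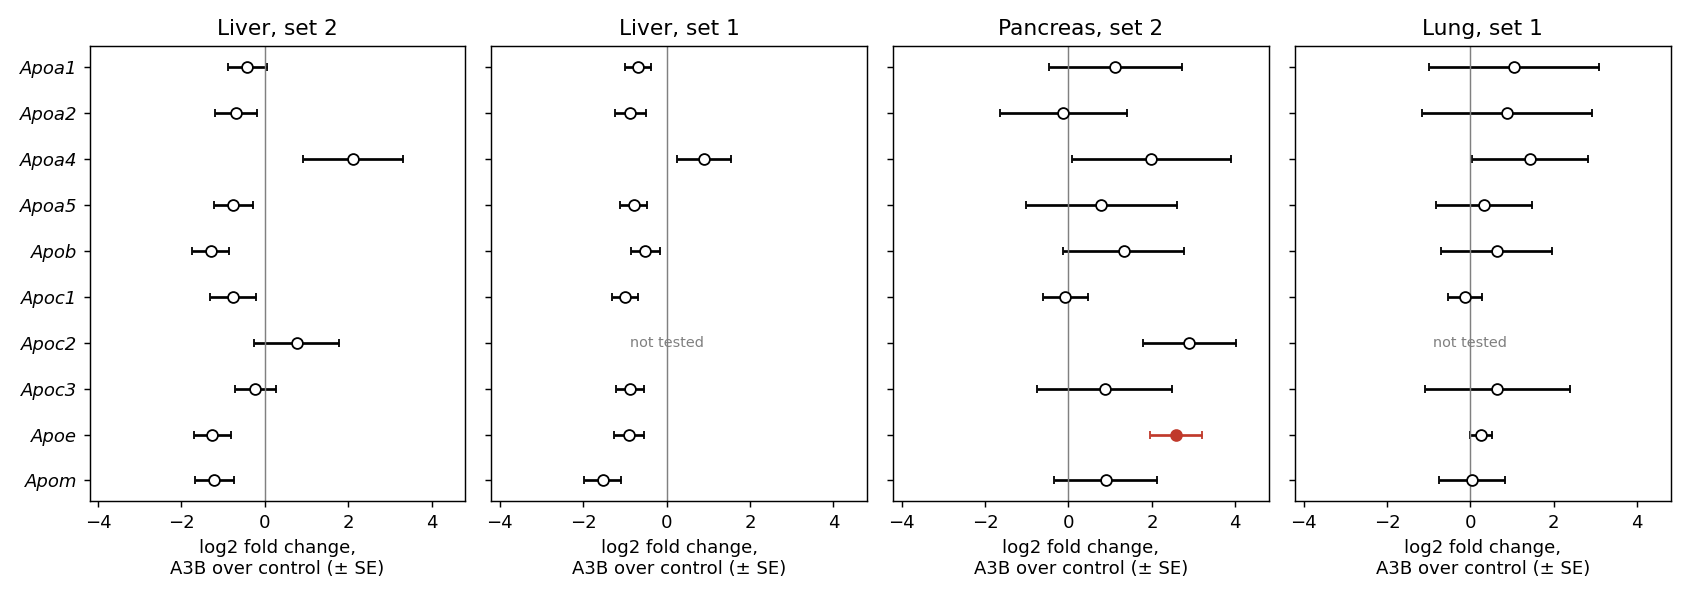
Log2 fold change of A3B over control (points) with its standard error (bars) for each apolipoprotein gene in the 4 comparisons, from edgeR in set 2 and limma in set 1. The filled red point, Apoe in pancreas at 2.58, is the one value past an adjusted p of 0.05.

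Apob gave the lowest unadjusted p of the members in set 2 livers. Its gene-level values were 415 and 481 TPM in controls 45 and 168 and 207, 146, 268, 164, 643 and 170 TPM in A3B livers 44, 137, 49, 125, 48 and 153. All but A3B liver 48 lay below both controls, and liver 48 lay above them. The log2 fold change was -1.30 in counts (SE 0.44, edgeR adjusted p = 0.119). Without liver 48 Apob passed the test at -1.62 (edgeR adjusted p = 0.0357). In that fit 379 genes were called higher and 744 lower, against 218 and 418 with all livers. With each library left out in turn, the log2 fold change of Apob ran from -1.62 to -1.21. Read by transcript, the picture of liver 48 changed. Full-length Apob-202, which carries the editing site shown above, was at 278 and 150 TPM in controls 45 and 168 and was at 126, 81.9, 129, 96.8, 101 and 74.7 TPM in A3B livers 44, 137, 49, 125, 48 and 153. The A3B livers, liver 48 included, all lay below both controls for this transcript. Its log2 fold change was -1.64 (SE 0.31, edgeR adjusted p = 0.0908 over 60653 transcripts, of which 0.162% passed). The fit by transcript was chosen after the data were seen. Without liver 48 the adjusted p of Apob-202 was 0.0415. In that fit 286 of 58994 transcripts were called higher and 739 lower, against 15 and 83 with all livers. Apoe-201 also passed there (edgeR adjusted p = 0.0289).

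The high value of liver 48 came from the 3′ transcript. Apob-203 was at 542 TPM there, against 63.0 to 139 TPM in the other A3B livers and 135 and 331 TPM in controls 45 and 168. It took 43.9% of the Apob counts of liver 48, 6.55% and 24.2% in the controls and 8.32% to 15.5% in the other A3B livers. The same liver differed in its Apoe transcripts: Apoe-202 took 0.0626% of Apoe counts there and 30.5% to 36.8% in the other livers of set 2. Estimated counts divide shared reads between transcripts by a model, so these shares are estimates. In set 1, Apob was at 683, 337 and 372 TPM in controls 11, 91 and 92 and at 298, 323 and 308 TPM in A3B livers. The groups did not overlap, but the highest control stood far from the others (log2 fold change -0.51, SE 0.35, limma adjusted p = 0.336).

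**Figure D3:**
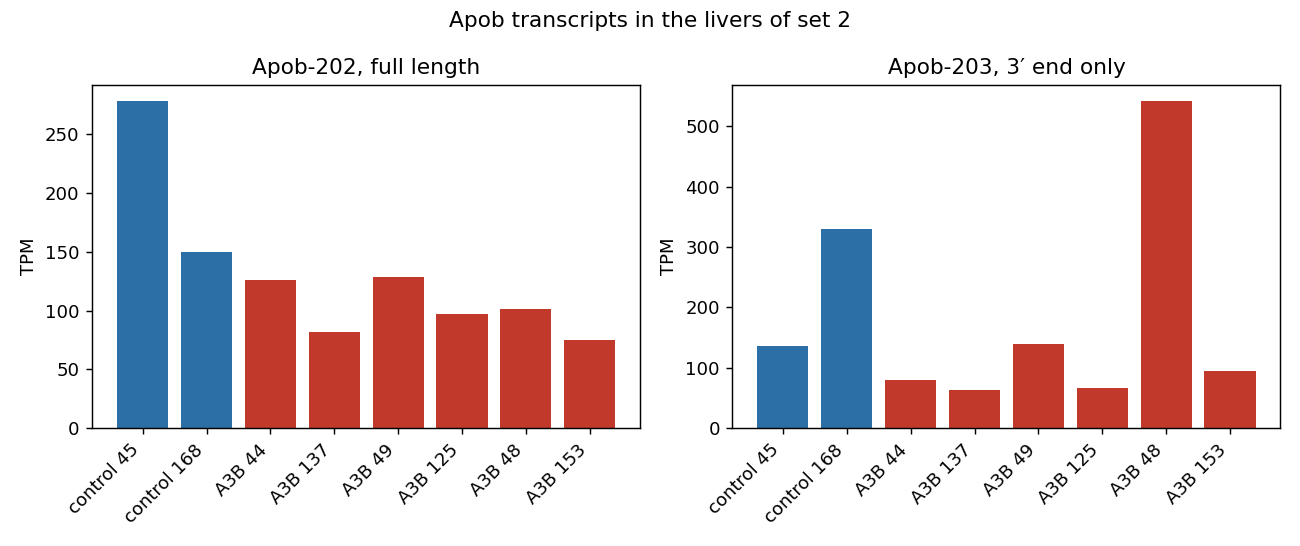
TPM of the full-length transcript Apob-202 (left) and the 3′ transcript Apob-203 (right) in each liver of set 2, with bars in blue for controls and red for A3B. Apob-202 is at 278 and 150 TPM in the controls and at most 129 TPM in the A3B livers, while Apob-203 is highest in A3B liver 48, at 542 TPM.

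Apoa1, Apoc3, Apoa4 and Apoa5 form a cluster on chromosome 9. The log2 fold change of Apoa4 was positive and those of the other 3 were negative in both sets, except that in set 2 scaling by totals took Apoa1 to 0.00 and Apoc3 to 0.18 and limma on log2(TPM + 1) took Apoc3 to 0.01, and no member of the cluster passed the test. Apoa1 was at 13551 and 14386 TPM in the controls of set 2 and ranged from 8031 to 17763 TPM (median 13657) in the A3B livers. The A3B values lay on both sides of the controls (log2 fold change -0.42, SE 0.47, edgeR adjusted p = 0.625), and the sign was lost when counts were scaled by their totals (0.00). In set 1 it was at 614, 977 and 953 TPM in controls and at 492, 469 and 600 TPM in A3B livers, which did not overlap (log2 fold change -0.68, SE 0.31, limma adjusted p = 0.174). Apoa4 was at 456 and 220 TPM in controls 45 and 168 and ranged from 338 to 6960 TPM (median 859) in the A3B livers. A3B livers 44, 137, 48 and 49 lay above both controls, livers 125 and 153 lay between them, and the spread was wide (log2 fold change 2.12, SE 1.20, edgeR adjusted p = 0.321, and 0.98 without A3B liver 49). In set 1 Apoa4 was at 225, 587 and 648 TPM in controls and at 921, 1676 and 356 TPM in A3B livers, with overlapping groups (log2 fold change 0.89, SE 0.65, limma adjusted p = 0.361, and 0.38 and 0.41 without A3B liver 28 or control liver 11). Across the 8 livers of set 2 the Pearson correlation of Apoa1 with Apoa4 was -0.99 on log2 CPM after TMM scaling and -0.75 on log2(TPM + 1), and it was -0.30 across the 6 livers of set 1, where A3B liver 28 was the lowest for Apoa1 and the highest for Apoa4. For Apoa5 and Apoc3 with Apoa4 it was -0.53 and -0.21 on the TMM scale of set 2. These are descriptions over libraries that include both groups. Apoa4 is overlapped by the antisense genes Gm47528 and Gm10680 and Apoa5 by Gm47544, and how strand was used in counting is not given in the sources used here.

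The promoters of Apoa1 and Apoa4, the pair with the most negative of these correlations, picked after the values were seen, are shown for their sequence (RefSeq, GRCm38.p6, 250 bases before to 50 after the start). GENCODE M21 starts these genes at 46228580 and 46240696, inside the windows, so fewer than 250 bases lie upstream by that annotation. Capitals mark matches, on either strand, to any of 6 short motifs, the TATA box as TATAAA, a nuclear receptor site as AGGTCA, an HNF4A core as CAAAG, a C/EBP-type site as TTGCAA, an HNF1-type site as GTTAAT and a GC box as GGGCGG.
Apoa1, chr9:46228380-46228679, plus strand: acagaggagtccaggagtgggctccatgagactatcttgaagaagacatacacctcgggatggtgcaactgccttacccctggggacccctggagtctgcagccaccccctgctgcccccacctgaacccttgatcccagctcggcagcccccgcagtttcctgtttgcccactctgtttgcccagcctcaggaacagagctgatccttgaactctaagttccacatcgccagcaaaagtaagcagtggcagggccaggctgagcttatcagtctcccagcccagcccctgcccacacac
Apoa4, chr9:46240594-46240893, plus strand: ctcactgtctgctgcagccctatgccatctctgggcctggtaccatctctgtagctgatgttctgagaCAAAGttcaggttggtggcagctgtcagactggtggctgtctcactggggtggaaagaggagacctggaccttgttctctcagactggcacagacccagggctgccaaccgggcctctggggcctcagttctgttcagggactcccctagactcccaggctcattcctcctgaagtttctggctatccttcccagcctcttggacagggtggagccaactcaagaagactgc
None of these letters occurs in the Apoa1 window, and the Apoa4 window holds CAAAG once, a motif that 53.9% of 32851 promoters of this length hold. The shares of promoters with the other motifs were 13.6% for TATAAA, 16.3% for AGGTCA, 6.23% for TTGCAA, 7.10% for GTTAAT and 35.7% for GGGCGG. Promoters were found in the table for 8 of the 10 members.

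The remaining liver members were lipase modulators and Apoa2. Apoa2 was at 22414 and 20804 TPM in the controls of set 2 and ranged from 6979 to 22722 TPM (median 17033) in A3B livers. Apoc1, an inhibitor of lipoprotein clearance, was at 13345 and 13021 TPM in controls, with 5 A3B livers between 5338 and 10999 TPM and liver 48 at 15286 TPM. Apoa5 was at 1487 and 1475 TPM in controls, with 5 A3B livers between 365 and 1302 TPM and liver 125 at 1865 TPM. For each of the 3 genes all but a few A3B livers lay below the controls, and the log2 fold changes were -0.69 (SE 0.51), -0.77 (SE 0.55) and -0.76 (SE 0.47), with edgeR adjusted p of 0.446, 0.426 and 0.358. In set 1 the corresponding values were -0.87 (SE 0.37), -1.0 (SE 0.31) and -0.79 (SE 0.32), with limma adjusted p of 0.156, 0.0797 and 0.133. Apoc3 had overlapping groups in set 2 (log2 fold change -0.23, SE 0.49, edgeR adjusted p = 0.818), and in set 1 it was at 472, 835 and 845 TPM in controls against 409, 315 and 410 TPM in A3B livers (log2 fold change -0.88, SE 0.34, limma adjusted p = 0.123). Apoc2, the lipase cofactor, was at 444 and 269 TPM in controls 45 and 168, between 225 and 415 TPM in 5 A3B livers and at 2966 TPM in A3B liver 49. Its log2 fold change was 0.76 (SE 1.02, edgeR adjusted p = 0.69) and turned to -0.53 without that liver. Apoc2 overlaps Gm44805 on the same strand over 6358 of its 6363 bases, so in set 2 its reads may be divided between both. In set 1 Apoc2 is listed at 0 in all 12 samples, and so is Apoc4. Gm44805 is at most 0.0783 TPM there, so it does not hold the missing Apoc2 level.

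In control livers of set 2 the levels ran from Apoe (30505 ± 1260 TPM, SD, n = 2) through Apoa2 (21609 ± 1139), Apoa1 (13968 ± 590), Apoc1 (13183 ± 229) and Apoc3 (5484 ± 1180) to Apoa5 (1481 ± 8.14). Apob (448 ± 46.5), Apom (414 ± 71.5), Apoc2 (357 ± 124) and Apoa4 (338 ± 167) followed, and neighbours among these last 4 overlapped in their samples. By correlation of log2 CPM over the 8 livers, among 6834 other genes whose average level reached 10 TPM, the genes most like Apoe were Idh3b (r = 0.999), Polr2m (0.988) and C8a (0.984). For Apob they were Rdh11 (0.977), Slc16a12 (0.970) and Nsdhl (0.970), and for Apoa1 Mepce (0.962), Agap3 (0.954) and Npepl1 (0.954). These genes are not distinctive, since 211, 52 and 37 genes had r over 0.9 with Apoe, Apob and Apoa1. The 8 livers include both groups.

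Around the members, genes that handle lipoproteins after secretion or control their synthesis did pass the test in liver. Of the pathway lists, 6 genes fell in both sets of livers, which come from different mice. Sort1, a sorting receptor of Apob particles, fell by 2.19 on the log2 scale in set 2 (SE 0.46, edgeR adjusted p = 0.035) and by 1.78 in set 1 (SE 0.29, limma adjusted p = 0.0234). Hepatic lipase, Lipc, fell by 3.45 (SE 0.58, adjusted p = 0.0169) and by 3.39 (SE 0.78, adjusted p = 0.0443). Among the others were Lmf1, a lipase maturation factor (-1.42 and -1.35), the sterol and fatty acid regulator Srebf1 (-3.65 and -2.20) and the clock repressor Nr1d1 (-2.71 and -2.05). These 6 were 60.0% of the 10 set 2 calls and 54.5% of the 11 set 1 calls among the 73 list genes tested in both. Over all genes 211 were called in both with the same sign, 41.4% of the set 2 and 25.1% of the set 1 calls. None of the 6 was called in set 1 without control liver 91, control liver 92 or A3B liver 23 or with no filter on low values. Calls over all genes there were 0 higher and 0 lower, 3 and 2, 42 and 12, and 37 and 13. The log2 fold changes of the 6 lay between -3.39 and -1.26 under those settings. In set 2 most of the 6 calls were lost without control liver 45 or 168, which leaves 1 control. The log2 fold changes then lay between -4.26 and -1.48.

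In set 2 livers 3.66% of the 17365 genes tested were called, 218 higher and 418 lower, and their middle log2 fold change was 0.21 over called and uncalled genes together. Of 11 genes of lipoprotein receptors and uptake, 2 fell and 9 did not pass in set 2 livers (median log2 fold change -0.85). Of 13 lipases and plasma enzymes 3 fell, the last being Lipg, and 10 did not pass. Of 13 genes of very low density lipoprotein assembly, 1 fell (Soat2, -1.17, SE 0.21, edgeR adjusted p = 0.0206) and 12 did not pass, with a median of -0.06. None of 8 genes of high density lipoprotein assembly and cholesterol efflux and none of 10 other apolipoproteins passed, and of 20 transcriptional regulators 1 rose and 3 fell, among them Srebf2 (-1.53, SE 0.23, adjusted p = 0.01). In set 1 livers the counts were 0 higher and 2 lower of 9 receptor genes, 1 and 2 of 11 lipase genes, 1 and 2 of 13 assembly genes, 0 and 0 of 7 efflux genes, 0 and 0 of 8 other apolipoproteins, and 0 and 2 of 19 regulators. Of all genes tested there 7.93% were called, 698 higher and 214 lower. Cideb, which acts in lipidation of very low density lipoprotein, fell in set 1 (-1.37, SE 0.32, limma adjusted p = 0.0449) and had -1.53 in set 2 (SE 0.37, edgeR adjusted p = 0.0507).

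None of 6 genes of the Apobec1 editing complex passed in set 2 livers, where 3.66% of all genes did. Apobec1, the catalytic subunit, had a mean of 16.9 ± 9.03 TPM in 2 control livers and 27.1 ± 10.2 TPM in 6 A3B livers (log2 fold change 0.39, SE 0.41, edgeR adjusted p = 0.606). Its cofactors A1cf and Rbm47 had log2 fold changes of -0.20 (SE 0.35, adjusted p = 0.767) and 0.94 (SE 0.34, adjusted p = 0.147). In set 1 livers 1 of 6 rose, Syncrip (1.31, SE 0.31, limma adjusted p = 0.0455), while Apobec1 (0.78, SE 0.48, adjusted p = 0.287), A1cf (0.94, SE 0.83, adjusted p = 0.451) and Rbm47 (1.16, SE 0.44, adjusted p = 0.123) did not pass. Of all genes 7.93% were called in set 1 livers.

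In the pancreas, which is not a main source of apolipoproteins, Apoe rose. It was at 68.7 and 160 TPM in controls 45 and 168 and at 5352, 5560, 2167, 3116, 3157 and 1280 TPM in A3B pancreases 44, 53, 49, 125, 137 and 153. Every A3B value lay far above both controls. After TMM scaling the log2 fold change was 2.58 (SE 0.62, edgeR adjusted p = 0.0101). It was the single member called of 10, against 31.9% of 19123 genes called in either direction and 17.0% called higher. DESeq2 also called 1 of 10, against 36.8% of genes, and 2 members had an unadjusted p under 0.05, against 43.5%. It stayed past the threshold without A3B pancreases 44 and 137, whose genotype labels go against their titles (2.33, adjusted p = 0.0369), and lost the call without control pancreas 45 (2.61, adjusted p = 0.0577). The 12 acinar marker genes, of the cells that secrete digestive enzymes, summed to 427096 and 426245 TPM in the control pancreases and to between 76273 and 195646 TPM in the A3B pancreases, and 11 of the 12 fell. Their part in the TPM values of the other genes was not tested. With counts scaled by their totals the median of all genes shifted by 2.19 and 5 members were called higher, Apob, Apoc1, Apoc2, Apoe and Apom, against 71.6% of genes called.

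Markers of several cell types moved with Apoe in the pancreas. The 12 macrophage markers summed to 53.3 and 587 TPM in controls 45 and 168 and to between 2280 and 6544 TPM in A3B pancreases, and 9 of the 12 rose in the test. Across the 8 pancreases the correlation of Apoe with this sum, in log2 TPM, was 0.948, with the sum of 12 hepatocyte markers it was 0.886, and with the hepatocyte gene Ahsg alone it was 0.611. The 7 fibroblast markers summed to 40.1 and 173 TPM in controls 45 and 168 and to between 977 and 1499 TPM in A3B pancreases (6 of 7 rose). The 6 ductal markers summed to 55.5 and 107 TPM in the controls and to between 1280 and 3032 TPM in A3B pancreases (4 of 6 rose). The correlation of Apoe was 0.964 with the fibroblast sum, 0.986 with the ductal sum and -0.882 with the acinar sum, so these data tie it to no single cell type. All correlations in pancreas run over both groups together, so a gene and a list that both differ between the groups tend to correlate. Apoe divided by the macrophage sum was 1.29 and 0.273 in the controls and 0.482 to 1.34 in the A3B pancreases, so the groups overlapped in that ratio. The part of these cell types in the Apoe result was not tested. Apoc2, also made by macrophages, was at 0 and 3.69 TPM in controls 45 and 168 and between 19.0 and 83.2 TPM in the A3B pancreases, with no overlap (log2 fold change 2.90, SE 1.12, edgeR adjusted p = 0.0807). Without control 168 it passed (adjusted p = 0.001), but the single control left is then at 0 and the fitted fold of 13.51 is no measure of size, and without control 45 it was 1.99 (adjusted p = 0.063). Its correlation was 0.986 with the macrophage sum, 0.977 with the fibroblast sum and 0.962 with the ductal sum. Apoc1 was at 33.95 and 22.75 TPM in controls and between 78.1 and 254 TPM in A3B pancreases, again with no overlap, but its log2 fold change after TMM scaling was -0.08 (SE 0.54, adjusted p = 0.919). Every A3B sample above every control in TPM was true of 3 of 10 members and of 70.8% of all genes.

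**Figure D4:**
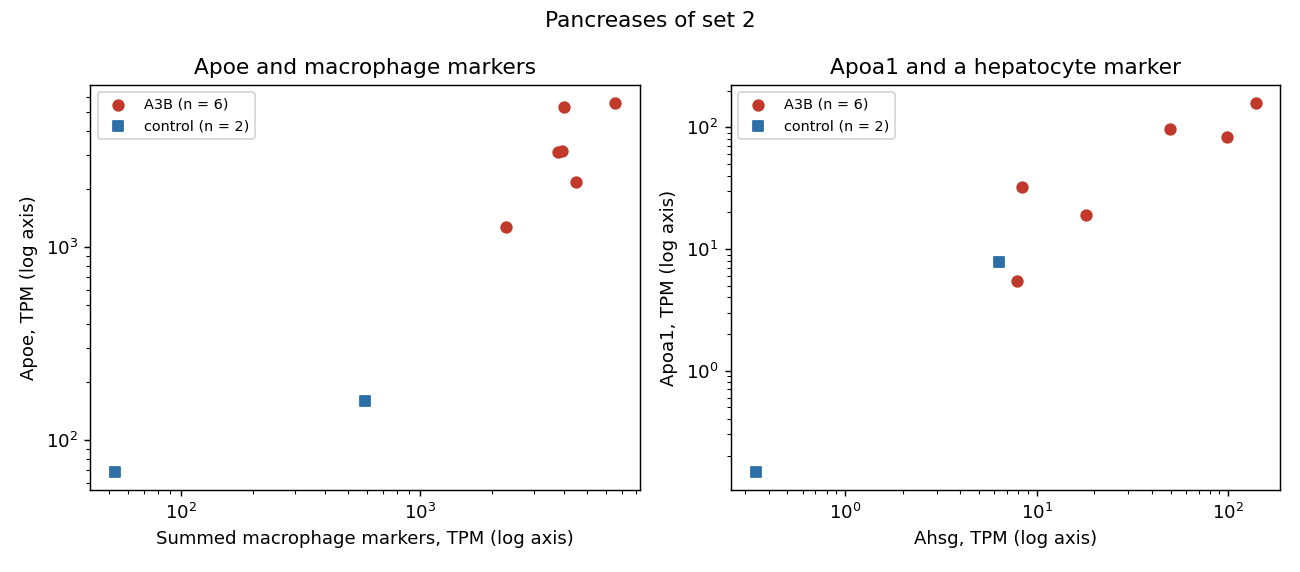
Left, Apoe against the summed TPM of 12 macrophage markers, and right, Apoa1 against the hepatocyte gene Ahsg, in each pancreas of set 2, both on log axes in TPM, with red circles for A3B and blue squares for control. Apoe is higher where the macrophage sum is higher (correlation 0.948, against 0.964 and 0.986 with the fibroblast and ductal sums), and Apoa1 where Ahsg is higher (0.949). The correlations run over both groups together.

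The other 7 members in pancreas had overlapping groups. Apoa1 was at 7.81 and 0.147 TPM in controls 45 and 168 and at 82.7, 5.49, 157, 32.1, 97.6 and 18.9 TPM in A3B pancreases 44, 53, 49, 125, 137 and 153. The groups overlapped and the log2 fold change was 1.12 (SE 1.59, edgeR adjusted p = 0.624), or 0.13 and 7.06 without control 168 or 45. Over the pancreases of both groups the correlation with Ahsg was 0.949 for Apoa1, 0.968 for Apoa2, 0.984 for Apoc3, 0.945 for Apoa5, 0.948 for Apom, 0.886 for Apob and 0.802 for Apoa4. With the sum of the 12 hepatocyte markers it was lower for these genes, from 0.721 (Apoa4) to 0.880 (Apoc3), against 0.886 for Apoe and 0.954 for Apoc1, so the order of the members depends on which measure is used. The 12 hepatocyte markers summed to 72.0 and 64.5 TPM in the controls and to 312 to 1639 TPM in the A3B pancreases, highest in 44 and 49, but 0 of the 12 passed the test (median log2 fold change 0.95). Alb was at 32.7 TPM in control 45, above the 10.4 and 19.1 TPM of A3B pancreases 53 and 125, so it was not high in every A3B pancreas. For Apob, Apoa5, Apoc3 and Apom the log2 fold changes of 1.32, 0.78, 0.87 and 0.89 turned to -0.25, -0.67, -0.60 and -0.20 without A3B pancreases 44 and 49, and none passed with or without these. Apoa2 and Apoa4 had log2 fold changes of -0.12 (SE 1.52) and 1.99 (SE 1.91). The part of hepatocyte RNA in these values was not tested.

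Of the genes around the members in pancreas, Abca1 (2.60, SE 0.56, edgeR adjusted p = 0.00709) and Abcg1 (3.27, SE 0.61, adjusted p = 0.00359), transporters that load cholesterol onto high density lipoprotein, rose. So did the receptor Lrp1 (2.17, SE 0.39, adjusted p = 0.00245), and Apod among the other apolipoproteins (5.50, SE 0.90, adjusted p = 0.00224). Beside the 31.9% of all pancreas genes called, of 8 efflux genes 4 rose and 1 fell, and of 11 receptor genes 5 rose and 1 fell. Lipases and plasma enzymes gave 2 higher and 2 lower of 13, assembly genes 2 and 3 of 13, regulators 6 and 1 of 20, and other apolipoproteins 3 and 1 of 10. Several of these shares lie near that of all genes. Of the 6 genes of the editing complex 1, Rbm47, rose (1.03, SE 0.29, adjusted p = 0.0217), while Apobec1 (1.55, SE 0.57, adjusted p = 0.067) and A1cf (-0.05, SE 0.41, adjusted p = 0.938) did not pass.

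The A3B effect on Apoe differed between pancreas and liver in set 2. The difference of log2 fold changes, pancreas minus liver, was 4.02 (SE 0.94, edgeR adjusted p = 0.015). Apoe was the single member called, of 10, against 11.9% of 19908 genes called in either direction, 6.87% called higher and 28.8% at an unadjusted p under 0.05 (1 member). With the mouse as a block, which the shared animals allow, it was 3.76 (adjusted p = 0.0905) and no longer passed, with 0 of 10 members and 8.12% of genes called. DESeq2 called 1 member and 20.3% of genes, and scaling by totals called 4 members and 40.5% of genes. None of the 10 members had a negative difference, against 49.0% of genes. In set 1 no member passed for lung minus liver (limma, 0 of 9, against 10.7% of 13476 genes, with 1 member and 29.9% of genes at an unadjusted p under 0.05). There Apoe had a difference of 1.15 (adjusted p = 0.118), and 1.22 (adjusted p = 0.042) with the mouse as a block, where 1 member and 19.3% of genes passed.

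In lungs no apolipoprotein gene passed the test (0 of 9 with limma, against 36.8% of 13650 genes, and 0 at an unadjusted p under 0.05, against 48.8%). All 9 members varied with the hepatocyte gene Ahsg among the lung libraries, and none of the 11 hepatocyte markers tested passed. Ahsg, a liver secretory protein, was at 0.534, 298 and 21.1 TPM in control lungs 87, 88 and 91 and at 4.31, 219 and 234 TPM in A3B lungs 69, 70 and 74. Apoa1 was at 0.171, 73.2 and 7.30 TPM in the same controls and at 1.24, 56.4 and 48.9 TPM in the A3B lungs. Control lung 88 and A3B lungs 70 and 74 were thus high in both, and the ratio of Apoa1 to Ahsg stayed between 0.209 and 0.347 in all 6 lungs. Across the 6 lungs the correlation with Ahsg, in log2(TPM + 1), was 0.997 for Apoa1, 0.995 for Apoa2, 0.994 for Apoc3, 0.957 for Apob, 0.956 for Apoa5, 0.952 for Apoa4, 0.917 for Apom, 0.869 for Apoc1 and 0.865 for Apoe. The part of hepatocyte RNA in the lung values was not tested.

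Apoe and Apoc1 had the smallest ratio of highest to lowest TPM among the lungs, though they also varied with Ahsg. Apoe was at 13.1, 22.3 and 14.2 TPM in control lungs and at 15.0, 26.2 and 18.6 TPM in A3B lungs (log2 fold change 0.26, SE 0.26, limma adjusted p = 0.464). In lung 87, where Ahsg was under 1 TPM, Apoe was 24.5 times Ahsg, whereas in lung 88 it was 0.0749 times. Apoc1 was at 15.4, 31.6 and 18.3 TPM in controls and at 10.9, 22.6 and 26.7 TPM in A3B lungs (log2 fold change -0.13, SE 0.40, adjusted p = 0.813). Beside the 36.8% of all lung genes called, 3 of 9 receptor genes rose, with Vldlr at 0.79 (SE 0.10, adjusted p = 0.00355), and 3 of 11 lipase genes rose and 2 fell, with lipoprotein lipase, Lpl, at 1.16 (SE 0.21, adjusted p = 0.00907) and its inhibitor Angptl4 at 1.76 (SE 0.14, adjusted p = 0.00176). Apobec1 had -0.42 (SE 0.27, adjusted p = 0.251), and of 5 editing complex genes tested 2 rose, Rbm47 (0.86, SE 0.16, adjusted p = 0.00991) and Celf2 (0.41, SE 0.11, adjusted p = 0.0262). One of 11 assembly genes, 1 of 8 efflux genes and 3 of 18 regulators rose, 1 efflux gene and 2 regulators fell, and 0 of 7 other apolipoproteins passed.

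**Figure D5:**
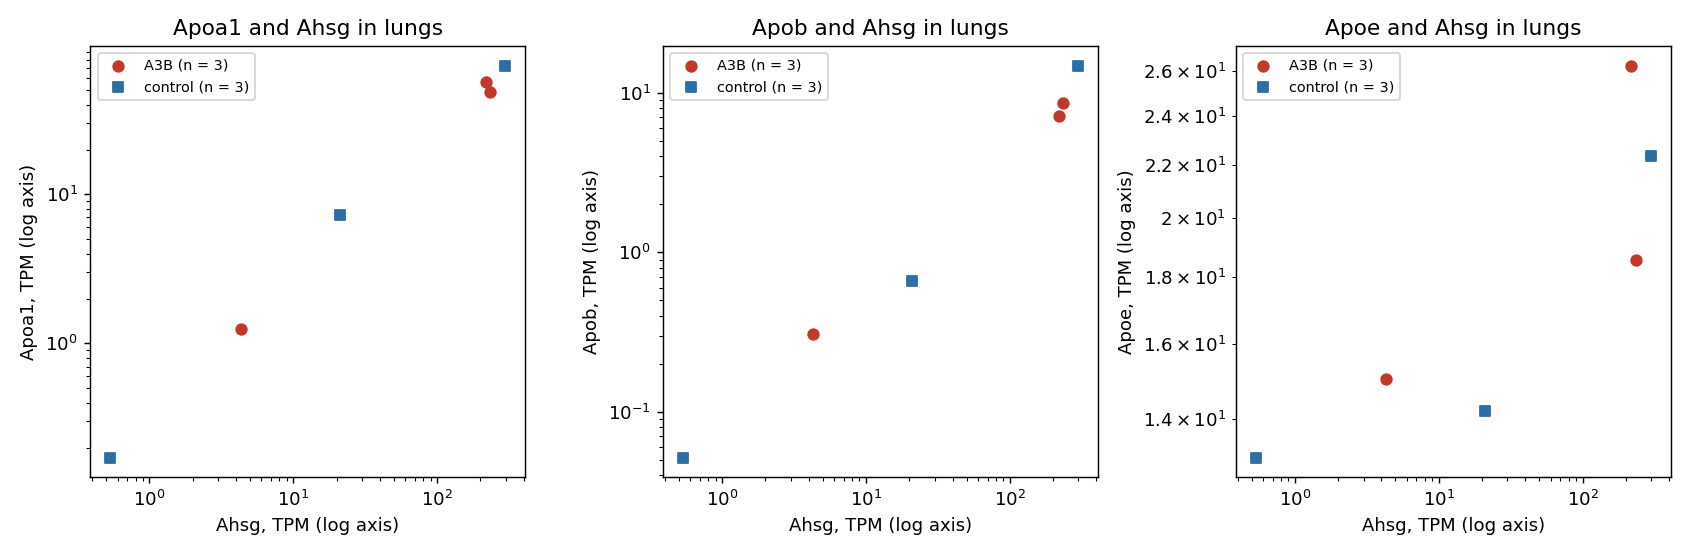
Apoa1, Apob and Apoe against the hepatocyte gene Ahsg in each lung of set 1, both axes logarithmic and in TPM, with red circles for A3B and blue squares for control. Apoa1 and Apob climb with Ahsg over the whole range, and Apoe, which also varies with it (correlation 0.865), spans only 13.1 to 26.2 TPM.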

How the data were processed

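RNA-seq libraries (TruSeq Stranded) were made by the authors from 28 mouse tissues. For set 2 the authors deposited estimated counts and TPM per transcript from kallisto (mm10). For set 1 the deposited table holds TPM per gene, with column names that state sorted and deduplicated alignments. The members and lists were chosen with earlier results of these data known. Transcripts were assigned to genes by GENCODE M21 (97.7% of 119414), with the estimated counts added up within each gene, then rounded, and transcripts with no gene (0.23% to 1.47% of counts) left out. Set 2 was tested with edgeR 4.0.16 (quasi-likelihood, robust, TMM, filterByExpr) and set 1 with limma 3.58.1 (trend, robust) on log2(TPM + 1) for genes averaging 1 TPM or more, so its fold changes are on that scale and understate low genes. Each tissue and set was fitted apart, p-values were adjusted by Benjamini-Hochberg over all genes tested, and an adjusted p under 0.05 was a call. The summed share was compared by an exact permutation test. Differences between tissues were interaction terms. Scripts were tested on simulated data. All members are named, and of each list up to 3 genes with the smallest p in the comparison described, with Apobec1, A1cf and Rbm47 always. Counts of list genes are given for all 7 pathway lists. The values of 1 list gene are not reported here. Alternatives were DESeq2 1.42.0, scaling by totals, other filters and pseudocounts, quantile normalization, each replicate left out, and, chosen after seeing the data, a fit by transcript, sets of libraries left out and a Y-chromosome covariate. Liver and pancreas of mice 44, 49, 125, 137, 153, 45 and 168 come from the same animal by their numbers. The correlations of their deviations from the group means were 0.199, -0.00457, 0.232, 0.263, 0.0907, 0.00857 and 0.00857. The members' liver counts in set 2 were 3595 or more, so counting error is small there. The groups of 2 and 3 are small, and their part in the missing calls was not tested.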

Additional observations from a re-analysis of the deposited data

Results flagged for a closer look

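In A3B liver 49 Apoa4 was at 6960 TPM and Apoc2 at 2966 TPM, far above the other 5 A3B livers. In A3B liver 48 Apob was at 643 TPM, with Apob-202 at 56.1% and Apob-203 at 43.9% of Apob counts. The same library had Apoe-202 at 0.0626% and Apoe-206 at 19.7% of Apoe counts. In A3B pancreas 153 Apob-202 held 40.0% and Apob-203 60.0% of Apob counts. Each of these samples lay apart from the other 5 of its group by Dixon's criterion, which chance alone meets in about 1 of 20 groups tested, and 9 of 30 groups tested met it, several of them from the same 2 livers. The A3B effect on Apoe differed between pancreas and liver by 4.02 on the log2 scale in a test of the difference (edgeR adjusted p = 0.015), a result that was lost with the mouse as a block (3.76, adjusted p = 0.0905).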

How the results depend on the processing

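Genes called numbered 636 in set 2 livers and 2396 with DESeq2, 1120 with counts scaled by totals, 3082 without A3B livers 48 and 49, and 73 to 1599 with each replicate left out (73 and 74 without control 168 or 45, 178, 216 and 377 without A3B liver 137, 44 or 125, 1123 and 1599 without A3B liver 48 or 49). Members called there were 0, then 2 (Apob and Apoe) with DESeq2 and without livers 48 and 49, and 0 to 1 with each replicate left out. Set 1 livers gave 912 calls, 50 with no filter on low values and 0 to 1561 with each replicate left out (0 without control 91, 5 without control 92, 54 without A3B 23, 1561 without control 11), with 0 to 1 members. Pancreas gave 6093 calls, 13683 with scaling by totals and 11553 with limma on log2(TPM + 1), and 3829 to 5820 with a replicate left out. Members called were 1, then 5 and 4 under those scalings and 0 to 2 with a replicate left out (0 without control 45). Lungs gave 5029 calls, 623 without lungs 88, 70 and 74, and 2997 to 4578 with a replicate left out. The tissue difference of set 2 gave 2368 calls, 3762 with DESeq2 and 8068 with scaling by totals (4 members), and 1616 genes and 0 members with the replicate block. That of set 1 gave 1447 calls, 48 without those lungs, and 2606 genes and 1 member with the replicate block. The block changed no other member's call.

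Signs turned as follows. In set 2 livers Apoa1 became 0.00 and Apoc3 0.18 with scaling by totals, Apoc3 0.01 with limma on log2(TPM + 1), and Apoc2 -0.54 without livers 48 and 49 (-0.53 to 0.91 with a replicate left out). In pancreas Apoa2 became 0.84 with the Y-chromosome covariate, 2.67 with scaling by totals and 3.25 with limma (-1.11 to 6.0 with a replicate left out). Apoc1 became 0.26, 2.43 and 2.33 under the same settings (-0.71 to 1.08). Without A3B pancreases 44 and 49, Apoa5 became -0.67, Apob -0.25, Apoc3 -0.60 and Apom -0.20. With a replicate left out Apoa1 ran from 0.13 to 7.06, Apoa4 from 0.96 to 12.86, Apob from 0.39 to 4.47, Apoc2 from 1.99 to 13.51, Apoa5 from -0.23 to 12.3, Apoc3 from -0.12 to 6.81 and Apom from -0.03 to 3.41. In lung Apom became -0.01 with quantile normalization, and without lungs 88, 70 and 74 Apoa1 became -0.48, Apoa2 -0.71 and Apoc3 -0.55. With a replicate left out the lung values were -0.42 to 2.58 for Apoa1, -0.67 to 2.40 for Apoa2, -0.35 to 1.32 for Apoa5, -0.13 to 1.83 for Apob, -0.38 to 0.23 for Apoc1, -0.63 to 1.97 for Apoc3 and -0.46 to 0.52 for Apom. The tissue difference of Apoa4 became -0.05 with DESeq2 in set 2 and -0.87 without those lungs in set 1. The cause of these turns was not tested. Under settings other than single replicates left out, 212 member values kept their sign and side of the threshold, 20 turned in sign, 13 kept it and came past the threshold, and 1 no longer passed. Apoc1 in pancreas, counted among those that turned, also came past it with scaling by totals (adjusted p = 0.00233) and with limma (0.000905).

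The difference in the share of TPM ran from -2.727 to -2.052 percentage points in set 2 livers with a replicate left out (exact permutation p 0.0476 to 0.286), from 0.3287 to 0.4215 in pancreas (0.0476 to 0.143) and from -0.002191 to 0.01058 in lung. In set 2 livers p was 0.0952 without A3B liver 125. Without a control p cannot go below 0.143, the smallest that 6 against 1 allows, so those values say nothing about stability. Scaling by totals moved the all-gene median of log2 fold changes by 0.46 in set 2 livers, where calls became 879 higher and 241 lower against 218 and 418, and by 2.19 in pancreas, where they became 13473 and 210 against 3250 and 2843. Quantile normalization moved it by -0.34 in set 1 livers, with 316 higher and 357 lower against 698 and 214.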
